A study of Mus musculus with 6 samples.

Results

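A set of 10 genes was followed here that act in the radial migration of cortical neurons or whose loss gives lissencephaly, a cortex with reduced or absent folds. They are the reelin receptors Vldlr and Lrp8 (also called ApoER2), the adaptor Dab1, the kinase Cdk5 with its activator Cdk5r1, the atypical small GTPase Rnd2, the microtubule-binding protein Dcx, and Pafah1b1 (LIS1) with its dynein partners Nde1 and Ndel1. They were chosen by gene symbol and by role, with earlier results of these data known. These 10 genes are 10 of the 17348 genes in the expression table. RNA was taken from mouse cortex at E18.5 (embryonic day) and sequenced as mRNA libraries, 3 from Ybx1 conditional knockout (cKO) cortices and 3 from control cortices. In the cKO, Nestin-Cre, which is active in neural progenitors throughout the nervous system, deleted exons 3 to 8 of the floxed Ybx1 alleles (Nestin-Cre, Ybx1 fl/fl). The controls carried the floxed alleles without Cre (Ybx1 fl/fl) in the description of the cross, while the sample labels call them wild type. On that description the floxed alleles are shared by both groups and Nestin-Cre is carried by the cKO group alone, so the effect of Cre and that of Ybx1 loss cannot be told apart. Ybx1 is an RNA-binding protein that reads 5-methylcytosine on mRNA, and the comparison asks how cortical mRNA levels change when it is lost. The controls are described as littermates of the cKO embryos and the profiles as coming from 3 independent experiments, but the labels do not say which libraries share a litter or whether tissue was pooled.

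In the developing cortex, newborn neurons climb along radial glia towards the surface. Reelin, secreted by Cajal-Retzius cells under the surface, binds VLDLR and APOER2 on the migrating neuron, which leads to tyrosine phosphorylation of the adaptor DAB1 and sets where the neuron stops. Inside the cell, CDK5 with its activator p35 phosphorylates cytoskeletal regulators, doublecortin stabilises microtubules in the leading process, and LIS1 with NDE1 or NDEL1 regulates the dynein motor that pulls the nucleus forward. Mutations of LIS1 and DCX are the classic causes of lissencephaly in people, and loss of reelin, of Dab1 or of both receptors together inverts the cortical layers in mice.

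The receptor genes Vldlr and Lrp8, and Dcx with its paralogue Dclk1, recur below, and a stretch of their coding sequences is shown because a comparison of the members of a pair requires that reads can be assigned to 1 of them. In each pair the stretch of 60 coding bases around the longest exact match is printed, 5′ to 3′ on the coding strand, from the GRCm38 genome with the GENCODE M21 annotation. Capitals mark the bases that differ between the 2 genes of a pair.
Vldlr: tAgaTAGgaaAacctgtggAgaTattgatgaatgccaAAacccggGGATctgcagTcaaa
Lrp8: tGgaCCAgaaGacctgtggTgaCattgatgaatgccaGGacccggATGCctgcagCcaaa
Dcx: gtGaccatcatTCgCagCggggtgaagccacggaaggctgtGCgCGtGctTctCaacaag
Dclk1: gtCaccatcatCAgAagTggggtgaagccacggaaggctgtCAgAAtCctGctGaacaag

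The Vldlr stretch runs from exon 8 into exon 9, between positions 27239721 and 27239883 of chromosome 19, and that of Lrp8 from exon 7 into exon 8, between positions 107851407 and 107851538 of chromosome 4, both on the plus strand. The Dcx stretch is in exon 3 at chrX:143923191-143923250 (minus strand) and that of its paralogue Dclk1 in exon 3 at chr3:55256050-55256109 (plus strand). Over the aligned coding bases, Vldlr and Lrp8 were 63.1% identical and Dcx and Dclk1 75.6%. The longest runs without a difference were 14 and 23 bases. Sequence shared with any other annotated gene was little: of all windows of 50 bases along a transcript, 3.20% recurred elsewhere for Rnd2 (in Gm4768), 1.60% for Pafah1b1 (in its pseudogenes Pafah1b1-ps1 and Pafah1b1-ps2), 1.25% for Nde1 (in Marf1), 0.517% for Lrp8 and 0.288% for Dcx. No window of Dab1, Vldlr, Cdk5, Cdk5r1 or Ndel1 recurred. Exons of Rnd2 overlap those of Vat1, and exons of Nde1 overlap those of Marf1, each on the opposite strand. Since the strand setting of the counting is not given in the sources used here, reads that fall in these overlaps cannot be told apart. The windows were compared on both strands, and those of Nde1 found in Marf1 were the 1.25% above. No window of Rnd2 recurred in Vat1.

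In the same annotation the receptor genes are Vldlr at chr19:27216484-27254231 and Lrp8 at chr4:107802261-107876840, each with 19 exons in the transcript taken here. Dab1 lies at chr4:103619359-104744844 (15 exons), Cdk5 at chr5:24418241-24423530 (12 exons) and Cdk5r1, a gene with 1 exon, at chr11:80477023-80481184. Rnd2 is at chr11:101464999-101471853 and Dcx at chrX:143855842-143933311. Pafah1b1, at chr11:74673949-74724670, shares chromosome 11 with Cdk5r1, Rnd2 and Ndel1 (chr11:68821434-68871858), and Nde1 is at chr16:14163275-14192928.

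The libraries held 15091951 to 16885451 estimated counts, and a floor of 3 counts corresponded to between 0.178 and 0.199 CPM, so all 10 genes were far above it. CPM values are normalized counts, read counts scaled to a common library total after TMM normalization. The targeted gene checked the labels: Ybx1 was at 1015, 1297 and 956 CPM in the controls and at 24.0, 24.8 and 24.9 CPM in the cKO libraries. The Y-linked transcripts Eif2s3y, Kdm5d, Ddx3y and Uty were at 20.6 to 109 CPM in the 3 control libraries and at 0 to 1.40 CPM in the 3 cKO libraries, so sex and genotype cannot be told apart in any value below. This bears most directly on Dcx, which is on the X chromosome. Lrp8 and Dab1 lie on chromosome 4 with Ybx1, 11.4 Mb and 14.5 Mb from it, and alleles linked to the floxed locus were not tested. Control replicate 2 stood apart from the other control libraries in a way that followed transcript length, as described further on, and each gene's difference without it is given with its values.

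None of the 10 genes passed the test between cKO and control. All 10 were tested among 13570 genes with edgeR's quasi-likelihood test, and 0 were called higher and 0 lower at an adjusted p under 0.05 (Benjamini-Hochberg over all genes tested), where 0.0737% of all tested genes were called. At an unadjusted p under 0.05 the count was also 0 of 10, against 6.62% of all tested genes. DESeq2 called 0 as well, and 99 genes over all tested genes. In 1 of the 10, Ndel1, the cKO and control libraries did not overlap in normalized counts, against 14.3% of all tested genes. The log2 fold changes (cKO minus control) ran from -0.20 for Dab1 to 0.23 for Lrp8, with 4 above 0 and 6 below and a median of -0.050, where the median over all tested genes was 0.0027. All 10 lay inside the span from the 5th to the 95th percentile of all tested genes, which reached from -0.36 to 0.37. The adjusted p-values of the 10 genes were between 0.840 and 0.989.

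**Figure D1:**
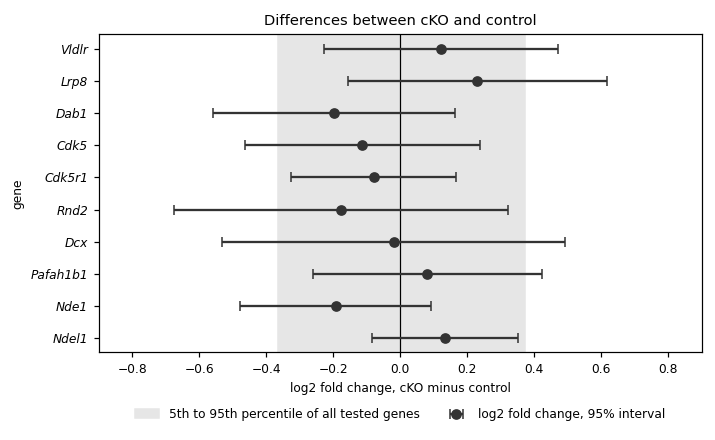
Log2 fold change (cKO minus control) of each of the 10 genes on the horizontal axis, from 3 against 3 libraries. Points give edgeR's estimate and bars a 95% interval derived from its F statistic. The grey band runs from the 5th to the 95th percentile of all 13570 tested genes. Every interval crosses 0, that of Ndel1 is the narrowest (-0.083 to 0.35), and that of Dcx is the widest (-0.53 to 0.49).

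The intervals say how large a change these libraries could have missed. With 95% confidence the cKO level of Ndel1 was between 0.944 and 1.28 times the control level, and that of Nde1 between 0.717 and 1.07 times. For Cdk5r1 the interval ran from 0.799 to 1.12 times. A 2-fold change lay outside the interval of every one of the 10 genes, the lowest bound being 0.626 times (Rnd2) and the highest 1.53 times (Lrp8). Smaller changes were not detectable for the genes with the widest intervals, which for Dcx ran from 30.8% lower to 40.6% higher.

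**Figure D2:**
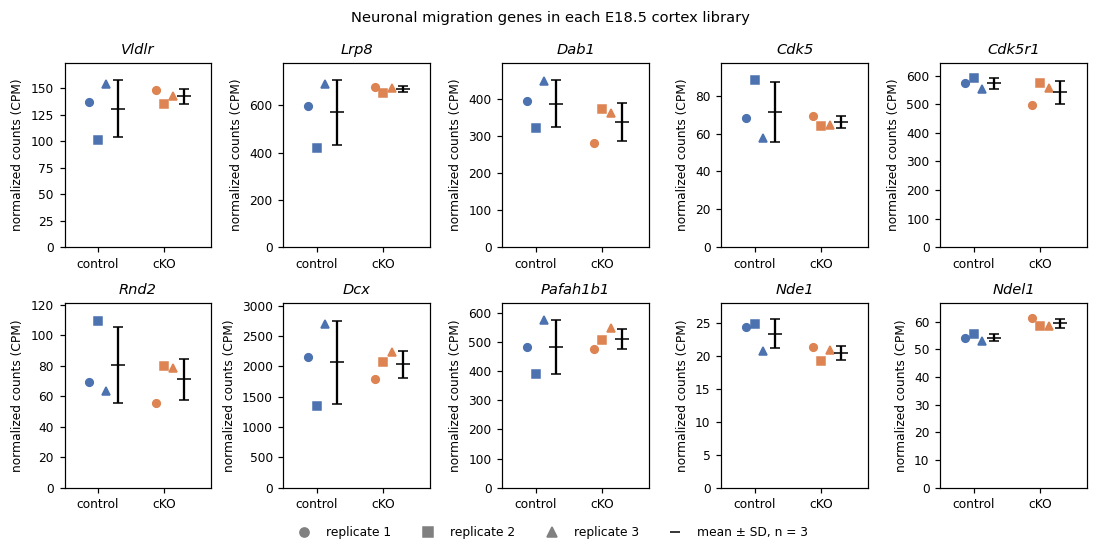
Normalized counts (CPM, linear axes from 0) of the 10 genes in each library, with circles, squares and triangles for replicates 1, 2 and 3 and a bar for the mean ± SD of 3 libraries. The groups overlap in every panel except Ndel1, where the cKO libraries (58.5 to 61.2 CPM) all lie above the control libraries (53.0 to 55.5 CPM).

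The receptors came first in the pathway. Vldlr, the very-low-density lipoprotein receptor, was at 137, 101 and 154 CPM in control replicates 1, 2 and 3 and at 149, 135 and 143 CPM in cKO replicates 1, 2 and 3. The groups overlapped, with control replicate 2 the lowest library and control replicate 3 the highest. Its log2 fold change was 0.12 (95% interval -0.23 to 0.47), and without control replicate 2 it was -0.035. Lrp8, the receptor also bound by apolipoprotein E, was at 599, 421 and 689 CPM in the controls and at 678, 654 and 673 CPM in the cKO libraries. The cKO libraries lay close together (668 ± 12.9 CPM, SD, n = 3), inside the much wider range of the controls (570 ± 137 CPM). Lrp8 had the highest log2 fold change of the 10, at 0.23 ± 0.171 (SE, interval -0.16 to 0.62). That value depended on the control libraries: it was 0.053 without control replicate 2 and 0.39 without control replicate 3, the latter with an adjusted p of 0.330 in edgeR's test.

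Dab1, the adaptor that both receptors bind through their cytoplasmic tails, was at 396, 322 and 449 CPM in the controls and at 281, 374 and 362 CPM in the cKO libraries. The lowest library was cKO replicate 1 and the highest were control replicates 1 and 3, with control replicate 2 among the cKO values. Dab1 had the lowest log2 fold change of the 10, -0.20 ± 0.159 (SE, interval -0.56 to 0.16, adjusted p = 0.860 in edgeR's test). Without control replicate 2 it was -0.32, with an unadjusted p of 0.0229 and an adjusted p of 0.312, in a fit where 12.1% of all tested genes had an unadjusted p under 0.05. With the trend on length and GC removed from each library it was -0.28 (unadjusted p = 0.0216, adjusted p = 0.238, both from edgeR). In the uncorrected fit of all libraries both receptors had positive fold changes and the adaptor a negative one, none past the test, while with the length and GC trend removed Vldlr was at -0.028.

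Cdk5, an atypical cyclin-dependent kinase used by neurons after division, was at 68.2, 88.4 and 57.5 CPM in the controls and at 69.5, 64.0 and 64.5 CPM in the cKO libraries. The cKO libraries fell within the range of the controls, whose highest value was control replicate 2. The log2 fold change was -0.11 (interval -0.46 to 0.24), and 0.071 without control replicate 2. Cdk5r1, which encodes the activator p35, was at 575, 590 and 553 CPM in the controls and at 497, 574 and 555 CPM in the cKO libraries. Its controls were the second most uniform of the 10 genes (573 ± 18.9 CPM, a coefficient of variation of 3.30%), and cKO replicate 1 was the only library below them. The log2 fold change was -0.079 (interval -0.32 to 0.17), and -0.057 without control replicate 2.

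Rnd2, a small GTPase without hydrolysing activity that promotes the switch from multipolar to bipolar shape, was at 69.2, 109 and 63.2 CPM in the controls and at 55.8, 79.8 and 78.4 CPM in the cKO libraries. Control replicate 2 was far above every other library, and the remaining 5 overlapped. The log2 fold change of -0.18 (interval -0.68 to 0.32) became 0.11 when that library was left out.

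Dcx, the microtubule-associated protein of migrating neurons, was the most abundant of the 10, at 2160, 1346 and 2694 CPM in the controls and at 1798, 2077 and 2239 CPM in the cKO libraries. Both the lowest and the highest library were controls, and the coefficient of variation was 32.9% in the controls against 10.9% in the cKO libraries. The means were nearly equal (2067 ± 679 and 2038 ± 223 CPM), and the log2 fold change was -0.020 (interval -0.53 to 0.49). This value was set by single libraries, since it was -0.25 without control replicate 2 and 0.22 without control replicate 3. It also turned positive without control replicate 1 (0.013) and without cKO replicate 1 (0.063).

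Pafah1b1, which encodes LIS1, was at 482, 390 and 577 CPM in the controls and at 478, 507 and 549 CPM in the cKO libraries. The cKO libraries lay within the control range, and control replicate 2 was the lowest library. The log2 fold change was 0.081 (interval -0.26 to 0.42), and -0.051 without control replicate 2. LIS1 is known to be sensitive to gene dose, since loss of 1 copy causes lissencephaly in people. The lower bound of the interval here corresponds to a level 16.5% below the control.

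Nde1 and Ndel1 encode closely related coiled-coil proteins that tether LIS1 to dynein. Nde1 acts mainly in dividing progenitors and Ndel1 mainly in postmitotic neurons. Nde1 was the least abundant of the 10, at 24.3, 24.8 and 20.8 CPM in the controls and at 21.2, 19.1 and 20.8 CPM in the cKO libraries. Control replicate 3 was as low as the cKO libraries, and the other controls were above all of them. Its log2 fold change was -0.19 ± 0.127 (SE, interval -0.48 to 0.093, adjusted p = 0.840 in edgeR's test). Ndel1 was at 53.9, 55.5 and 53.0 CPM in the controls and at 61.2, 58.5 and 58.5 CPM in the cKO libraries. All cKO libraries were above all controls, and both groups were tight (54.2 ± 1.26 and 59.4 ± 1.57 CPM, SD, n = 3). The log2 fold change was 0.13 ± 0.0959 (SE, interval -0.083 to 0.35), with an adjusted p of 0.854 in edgeR's test. An exact two-sided permutation test over the 6 libraries gave p = 0.1 for Ndel1, the smallest value that 3 against 3 libraries allow. Without control replicate 2 the values were -0.15 for Nde1 and 0.15 for Ndel1. The signs of Nde1, Ndel1, Dab1 and Lrp8 were the same in all 15 alternative fits. Those fits reuse the same 6 libraries or all but 1 of them, so equal signs are no replication.

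Ratios of paired genes within a library do not depend on how libraries are scaled against each other. They were taken on TPM, the deposited abundance that is scaled per transcript length, for 4 pairs. The ratio of Nde1 to Ndel1 was 0.477, 0.474 and 0.408 in the controls and 0.373, 0.348 and 0.373 in the cKO libraries. All 3 cKO libraries were below all 3 controls, and the mean log2 ratio was lower by 0.31 in the cKO (difference -0.31, from -1.15 ± 0.127 to -1.46 ± 0.0577, SD, n = 3; exact permutation p = 0.1, adjusted over the 4 ratios 0.2). With any single library left out, the difference stayed between -0.38 and -0.27. The ratio of Lrp8 to Vldlr was 4.73, 4.61 and 4.86 in the controls and 4.99, 5.22 and 5.12 in the cKO libraries. Here all cKO libraries were above all controls, by a mean log2 difference of 0.11 (exact permutation p = 0.1, adjusted 0.2), which stayed between 0.092 and 0.13 with any library left out. Neither ratio could pass the permutation test at 0.05, since 0.1 is the smallest p that 3 against 3 libraries allow. How often ratios of other gene pairs separate the groups was not computed. Among single genes the groups did not overlap for 14.3% of all tested genes, and Ndel1 is 1 of these.

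In both pairs the partners have similar transcript lengths, 1974 and 2078 bases for Nde1 and Ndel1 and 7032 and 7645 bases for Lrp8 and Vldlr. In both, control replicate 2 lay within or next to the values of the other controls. The remaining ratios overlapped between the groups. That of Cdk5r1 to Cdk5 was 2.97 to 4.23 in the controls and 3.10 to 3.89 in the cKO libraries (log2 difference -0.021, exact permutation p = 0.9, adjusted 0.9). It was 0.093 without control replicate 3, and it was also above 0 without control replicate 1 (0.0072) and without cKO replicate 1 (0.079). That of Dcx to Pafah1b1 was 2.07 to 2.79 in the controls and 2.25 to 2.45 in the cKO libraries (log2 difference -0.067, exact permutation p = 0.6, adjusted 0.8), and 0.015 without control replicate 3.

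**Figure D3:**
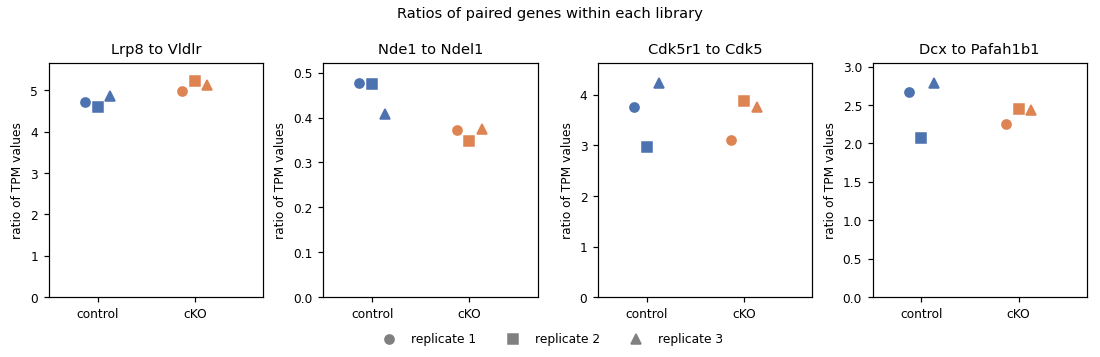
Ratio of the TPM values of 2 genes within each library (linear axes from 0) for 4 pairs, with 1 point per library and the replicate given by its shape. For Nde1 to Ndel1 the cKO libraries (0.348 to 0.373) lie below the controls (0.408 to 0.477), for Lrp8 to Vldlr they lie above them (4.99 to 5.22 against 4.61 to 4.86), and the other pairs overlap.

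Nde1 and Ndel1 differ in the cells that use them, so the marker sums of dividing cells and neurons are given beside their ratio. The summed normalized counts of 8 mitotic markers led by Mki67 and Top2a were 394 to 538 CPM in the controls and 445 to 476 CPM in the cKO libraries. Those of 8 radial glia markers led by Pax6 and Sox2 were 747 to 993 and 832 to 922 CPM, and those of 6 intermediate progenitor markers led by Eomes and Neurog1 (the latter at no more than 7 counts in a library) were 338 to 372 and 311 to 375 CPM. Pax6 alone was at 37.5 to 45.1 CPM in the controls and at 50.5 to 52.4 CPM in the cKO libraries. Its log2 fold change was 0.31 (unadjusted p = 0.0204, adjusted p = 0.608 in edgeR's test). Of the 8 radial glia markers, 3 had log2 fold changes above 0 and 5 below. The sums of 8 pan-neuronal markers led by Map2 and Rbfox3 were 3010 to 3538 and 3123 to 3473 CPM. For 6 Cajal-Retzius markers led by Trp73 and Calb2, the cells that secrete reelin, the sums were 63.4 to 67.5 CPM in the controls and 51.2 to 64.0 CPM in the cKO libraries. The ranges of all these sums overlapped with every library included, but for some the overlap rested on control replicate 2. With all libraries, 6 mitotic markers had log2 fold changes below 0 and 2 above. Leaving out control replicate 2 was a choice made after the data were seen. With fewer control libraries, separation of the sums comes more easily by chance, and no share over other gene lists was computed. Without that library the mitotic sums were 506 to 538 CPM in the controls, all above the cKO libraries (445 to 476 CPM). The Cajal-Retzius sums were then 65.2 to 67.5 CPM in the controls and also all above the cKO libraries. The radial glia, intermediate progenitor and pan-neuronal sums still overlapped. The part of cell composition in the ratios was not tested. In bulk tissue, fewer cells of a type and less RNA per cell cannot be told apart. With all libraries the other lists also overlapped between the groups: deep-layer and upper-layer neurons, interneurons, striatal and hippocampal neurons, astrocytes, oligodendrocyte precursors, microglia, endothelial and erythroid cells. Of these, upper-layer neurons and microglia separated without control replicate 2. The upper-layer sums were then 1942 to 1993 CPM in the controls and 1732 to 1926 CPM in the cKO libraries, and the microglia sums 46.0 to 47.3 and 52.4 to 55.6 CPM. The choroid plexus markers summed to at most 1.49 CPM in any library, with Ttr at no more than 1 count and Kl at no more than 2 counts in a library, and of those 5 markers only Aqp1 was abundant enough to be tested.

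Compared per transcript length, the order of the 10 genes was identical in both groups. From the highest mean TPM to the lowest it was Dcx, Cdk5r1, Pafah1b1, Lrp8, Dab1, Rnd2, Cdk5, Ndel1, Vldlr and Nde1. These values serve to compare genes within a group. Between the groups TPM was shifted, with a median difference of 0.14 (cKO minus control) over all tested genes on log2(TPM + 1). A higher TPM in the cKO is therefore not a higher normalized level. In the controls, Dcx was at 515 ± 204 TPM (SD, n = 3) and Nde1 at 25.0 ± 1.86 TPM. In the cKO libraries their means were 550 TPM (487 to 606) and 24.6 TPM (23.0 to 26.0). Cdk5r1 was at 316 ± 18.4 and 331 ± 23.5 TPM, well above its kinase Cdk5 at 87.7 ± 11.0 and 92.7 ± 4.60 TPM. Lrp8 (176 ± 53.7 and 224 ± 7.08 TPM) exceeded the other reelin receptor, Vldlr (36.9 ± 10.4 and 43.9 ± 2.36 TPM), in every library. Dab1 was at 172 ± 41.2 TPM in the controls and 166 ± 26.4 TPM in the cKO libraries, and Rnd2 at 154 ± 32.0 and 154 ± 28.3 TPM. Pafah1b1 (200 ± 53.9 and 231 ± 16.2 TPM) was several-fold above both of its dynein partners, Ndel1 standing at 55.3 ± 3.72 and 67.3 ± 2.05 TPM.

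Neighbours in this order were not all distinct. In the controls the library ranges of Dcx and Cdk5r1, Pafah1b1 and Lrp8, Lrp8 and Dab1, Dab1 and Rnd2, and Vldlr and Nde1 overlapped. In the cKO libraries those of Pafah1b1 and Lrp8 and of Dab1 and Rnd2 overlapped. The deposited FPKM values gave the same order, which is no separate check, since both measures divide the same counts by transcript length.

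**Figure D4:**
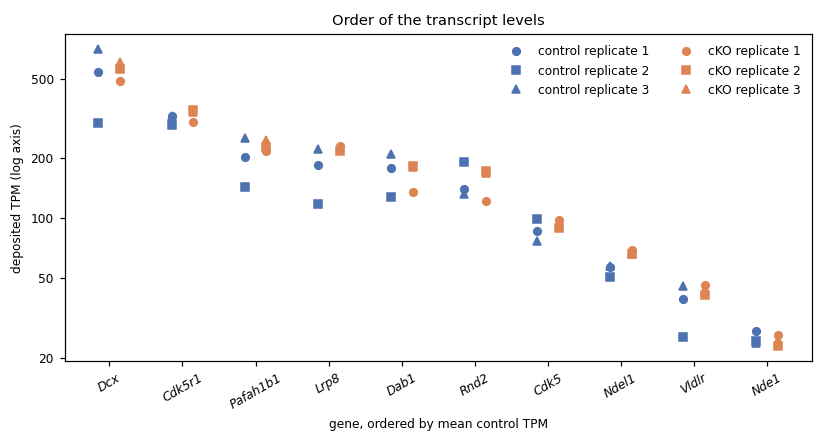
Deposited TPM of the 10 genes in each library (log axis), ordered by the control mean, with control libraries in blue and cKO libraries in orange and 1 point per library. The order of the group means is the same in both groups, from Dcx (515 and 550 TPM) to Nde1 (25.0 and 24.6 TPM), and the controls of the genes with long transcripts are spread more widely than the cKO libraries, with control replicate 2 lowest. TPM was shifted upwards in the cKO over all tested genes, so the levels are to be compared within a group.

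The wide spread of the controls had a pattern. Set against the mean of control replicates 1 and 3 on the log2 scale, control replicate 2 was lower for Dcx (-0.84), Lrp8 (-0.61), Vldlr (-0.53), Pafah1b1 (-0.43) and Dab1 (-0.39), nearly equal for Ndel1 (0.054), Cdk5r1 (0.067) and Nde1 (0.14), and higher for Cdk5 (0.50) and Rnd2 (0.73). The genes that were lower have long transcripts, from 4850 bases (Dab1) to 8719 bases (Dcx), and the genes that were higher have short ones, 1692 bases (Cdk5) and 1087 bases (Rnd2). Across the 10 genes the deviation and the length had Pearson's r = -0.965 and Spearman's rho = -0.976, given as a description since the points share the same 3 libraries. The same held for the tested genes at large: over 13319 genes with a length, r was -0.655 and rho -0.694. Their median deviation was 0.35 for transcripts under 2000 bases, 0.021 from 2000 to 4000, -0.26 from 4000 to 6000 and -0.55 from 6000 bases upwards. GC content varies with length among the 10 genes, from 40.6% for Dcx to 58.4% for Rnd2, so that length and GC content cannot be told apart here. RNA quality was not analysed here.

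**Figure D5:**
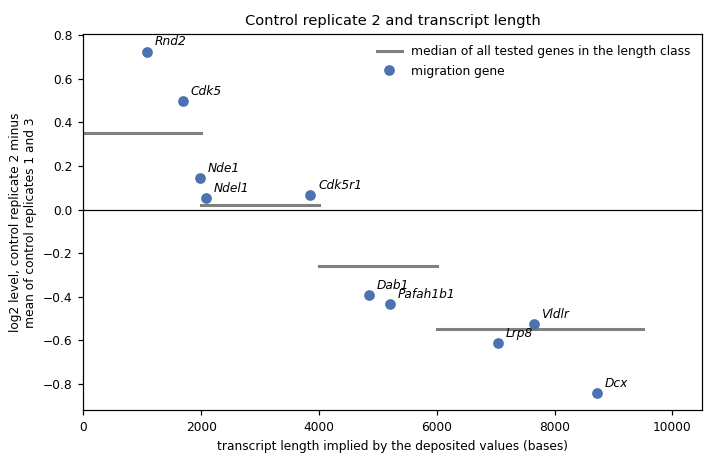
Difference of control replicate 2 from the mean of control replicates 1 and 3 (log2 scale, vertical axis) against the transcript length implied by the deposited values (bases, horizontal axis), with blue points for the 10 genes and grey bars for the median of all tested genes in 4 length classes. The points fall from 0.73 (Rnd2, 1087 bases) to -0.84 (Dcx, 8719 bases), and the medians of all tested genes fall from 0.35 to -0.55.

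With control replicate 2 left out, the fold changes of Vldlr, Pafah1b1, Cdk5 and Rnd2 turned in sign, as given with each gene, and 122 genes were called over all tested genes in place of 10, none of them among the 10 migration genes. With the correction for length and GC content 246 genes were called, again with 0 of the 10. The unadjusted p of Ndel1 was then 0.0326 (log2 fold change 0.16, adjusted p = 0.286 in edgeR's test), beside that of Dab1 given above. These 2 of the 10 genes stood against 14.5% of all tested genes at an unadjusted p under 0.05 in that fit.

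The other components of these pathways were taken from lists made by role, with earlier results of these data known. Of 20 further reelin pathway genes, all tested, 0 were called in either direction by edgeR, against 0.0737% of all tested genes. At an unadjusted p under 0.05, 1 was higher and 0 lower, against 6.62% of all tested genes. The median log2 fold change was -0.0097. The ligand Reln was at 411, 258 and 391 CPM in the controls and at 294, 361 and 373 CPM in the cKO libraries, with overlapping groups and a log2 fold change of -0.045. The highest value was that of Itgb1, the integrin beta subunit, with 173, 138 and 178 CPM in the controls and 220, 199 and 206 CPM in the cKO libraries. All its cKO libraries were above all controls (log2 fold change 0.35, unadjusted p = 0.0192, adjusted p = 0.607 in edgeR's test), and it was called with the length and GC correction (0.29, adjusted p = 0.0455). The lowest was that of the kinase Akt1, -0.29, with overlapping groups.

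Of 9 partners and substrates of Cdk5, 0 were called by edgeR, against 0.0737% of all tested genes. An unadjusted p under 0.05 was found for 0, against 6.62% of all tested genes, and the median was 0.0080. With so few genes, counts of 0 say little about the list. Cdk5r2, which encodes the second activator p39, was at 22.1, 26.0 and 13.5 CPM in the controls and at 19.1, 22.8 and 18.7 CPM in the cKO libraries (log2 fold change -0.025). The range in this list ran from -0.22 for the microtubule-associated Map1b to 0.26 for the scaffold gene Disc1.

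Of 27 genes of dynein, dynactin and LIS1 partners, 0 were called by edgeR, against 0.0737% of all tested genes, with a median of -0.037. At an unadjusted p under 0.05, 2 were higher and 1 lower, against 6.62% of all tested genes. In 5 genes the groups did not overlap, against 14.3% of all tested genes. Dync1h1, the dynein heavy chain, had a log2 fold change of -0.075. Actr1a, the actin-related protein that forms the dynactin filament, was the lowest of the list, at 316, 354 and 295 CPM in the controls and 228, 236 and 235 CPM in the cKO libraries. Its groups were well separated (log2 fold change -0.47 ± 0.11 SE), but it did not pass edgeR's test (adjusted p = 0.361). It was called by DESeq2 (adjusted p = 0.0111), with the length and GC correction (0.0063) and without control replicate 2 (0.0464, edgeR). The dynein light chain gene Dynlt1b was the highest, at 71.2, 81.7 and 66.4 CPM in the controls and 99.1, 93.3 and 94.1 CPM in the cKO libraries. Its groups also did not overlap (log2 fold change 0.39 ± 0.112 SE, adjusted p = 0.488 in edgeR's test), and it was called without control replicate 2 (adjusted p = 0.029) and with the length and GC correction (0.00598). The second gene with a higher unadjusted call was the related light chain Dynlt3 (0.37).

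Of 16 other genes mutated in cortical malformations, 0 were called by edgeR, against 0.0737% of all tested genes, with a median of 0.066. At an unadjusted p under 0.05, 0 were higher and 2 lower, against 6.62% of all tested genes. Both of the lower genes encode tubulins. Tubb2b was at 4659, 5487 and 4364 CPM in the controls and at 3212, 3521 and 3380 CPM in the cKO libraries. The groups lay far apart (log2 fold change -0.52 ± 0.126 SE, interval -0.81 to -0.23), with an unadjusted p of 0.00261 and an adjusted p of 0.384 in edgeR's test. Tubb2b was called by DESeq2 (adjusted p = 0.00892) and with the length and GC correction (0.00754). Tuba1a was at 7573, 9308 and 6848 CPM in the controls and at 6084, 6290 and 6120 CPM in the cKO libraries, again without overlap (log2 fold change -0.36, adjusted p = 0.664 in edgeR's test). Tubulin genes have near-identical copies between which the counting can divide reads, so both values are uncertain in that respect. The highest value of the list was 0.26, for the adaptor gene Cradd. The sum over the list was 19802 to 24250 CPM in the controls and 17469 to 18842 CPM in the cKO libraries, without overlap, and these tubulins are among its most abundant members.

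Of 4 genes of the doublecortin family, 3 were tested, and all 3 had log2 fold changes below 0, with a median of -0.11. None had an unadjusted p under 0.05 in edgeR's test, against 6.62% of all tested genes. Dclk1, the closest paralogue of Dcx, was at 686, 490 and 730 CPM in the controls and 582, 611 and 637 CPM in the cKO libraries. As for Dcx, control replicate 2 was the lowest and control replicate 3 the highest library (log2 fold change -0.058). The lowest, Dclk3 (-1.03), was at 0.315 to 5.91 CPM and too variable to read.

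Of 14 regulators of Rnd2, other small GTPases and guidance genes, 0 were called by edgeR, against 0.0737% of all tested genes. An unadjusted p under 0.05 was found for 0, against 6.62% of all tested genes, and the median was -0.022. Neurog2, the proneural factor that activates Rnd2, was at 60.5, 58.3 and 61.2 CPM in the controls and 50.2, 70.9 and 60.2 CPM in the cKO libraries (log2 fold change 0.0099). Zbtb18, a repressor of Rnd2 in maturing neurons, was at 1502, 1306 and 1684 CPM in the controls and 1317, 1534 and 1467 CPM in the cKO libraries (-0.057). Both overlapped between the groups. The list ran from -0.23 for the chemokine receptor gene Cxcr4 to 0.15 for the transcription factor gene Neurod1.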

How the data were processed

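RNA was extracted with Trizol from cortices at E18.5, and mRNA libraries were sequenced on a DNBSEQ platform. The authors deposited 1 table that gives, for every gene in every library, the estimated count, TPM and FPKM. The deposited estimated counts are not normalized between libraries, and 89.4% of them are whole numbers. The TPM values of the authors are scaled per transcript length and library, as are the deposited FPKM values. The submitters' processing notes name HISAT2 2.2.1, Bowtie2 2.4.5, RSEM 1.3.1, GRCm38 and mm10, without their roles. Of the 27 columns, 18 were used.

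Estimated counts were rounded, filtered with filterByExpr and scaled by TMM, and groups were compared with edgeR 4.0.16 (quasi-likelihood, Benjamini-Hochberg over 13570 genes) in R 4.3.3. The common biological coefficient of variation was 0.147, which adds to the counting error. Alternatives used DESeq2 1.42.0, limma 3.58.1 on log2(TPM + 1), and a smooth trend on length and GC content (mgcv 1.9.3), for which 13319 of the tested genes (98.15%) had values. Transcript lengths are those implied by the deposited counts and FPKM. Ratios were compared with exact permutation tests (scipy 1.17.1), and coding sequences were aligned with Biopython 1.88 in Python 3.11.15. Figures were drawn with matplotlib 3.10.9. The fits were run on simulated counts that held no length trend and no outlying library. The simulation therefore does not show how the fits deal with the pattern of control replicate 2. Replicates of a group differed beyond counting noise (chi-square per degree of freedom 3.41 to 62.4). The series' design text speaks of 3 batches, which are not tied to single libraries. The study's methods describe littermate controls and 3 independent experiments without tying a replicate number to a litter or an experiment, and p-values measure the spread between these libraries.

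The 10 genes, the pathway lists and the marker lists were chosen with earlier results of these data known. Named beside the 10 genes are Ybx1, the Y-linked genes, 6 genes by role (Reln, Cdk5r2, Neurog2, Zbtb18, Dclk1 and Dync1h1) and from each pathway list the genes that passed the test and those with the highest and the lowest fold change. Tuba1a and Dynlt3 lie outside this rule and were named after their values were seen. Single values of the marker gene Pax6 were likewise given after they were seen. A coding stretch of Nde1 and Ndel1 is not reported here.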

Additional observations from a re-analysis of the deposited data

How the results depend on the processing

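In none of the 15 alternative fits was any of the 10 genes called (Dcx was not tested in the fit without the X and Y chromosomes), and their medians stayed between -0.095 and 0.022 with single libraries left out. Under the length and GC correction Vldlr was at -0.028 and Pafah1b1 at -0.016, 246 genes were called in all, 2 of the 10 had an unadjusted p under 0.05 (all genes, 14.5%), and 1 reelin, 2 dynein and 1 malformation gene were called. With the replicate block added, the values were -0.028 and -0.017, 362 genes, 3 of the 10 (Dab1, Ndel1 and Dcx, lowest adjusted p 0.125, all genes 16.8%), and again 1, 2 and 1. On log2(TPM + 1) with limma, the median of all genes was 0.14, and the values are to be read against it. In that fit Dcx was at 0.18, Cdk5 at 0.085, Cdk5r1 at 0.065 and Rnd2 at 0.00059. An unadjusted p under 0.05 was found for 1 of the 10 (Ndel1), against 10.3% of all tested genes. The medians were 0.13 for the 10 genes, 0.14 for reelin, 0.17 for Cdk5, 0.12 for dynein, 0.21 for malformation, 0.0068 for doublecortin and 0.12 for the Rnd2 list. DESeq2 called 99 genes, with 1 dynein and 1 malformation gene among them, and without the X and Y chromosomes 6 genes were called. On estimated counts the ratio of Cdk5r1 to Cdk5 differed by 0.0085. The cause of these shifts was not tested.

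With single libraries left out, 8 to 122 genes were called over all tested genes (122 without control replicate 2, 19 without control replicate 3), 0 to 2 in the dynein list, the sums of 0 to 4 of the 16 marker lists did not overlap (0 with all libraries, 4 without control replicate 2, an alternative chosen after the data were seen), and 0 to 1 of the 10 genes had an unadjusted p under 0.05. The log2 fold changes then ranged from -0.035 to 0.26 for Vldlr, -0.25 to 0.22 for Dcx, -0.051 to 0.23 for Pafah1b1, -0.25 to 0.071 for Cdk5 and -0.32 to 0.11 for Rnd2. The ratio of Cdk5r1 to Cdk5 ranged from -0.16 to 0.093 and that of Dcx to Pafah1b1 from -0.20 to 0.015. The list medians ranged from -0.049 to 0.041 for dynein, -0.024 to 0.079 for malformation and -0.21 to -0.070 for doublecortin.

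The deviations of control and cKO libraries with the same number correlated at r = 0.099, 0.085 and 0.26, and each was the highest for its number, but not every value exceeded 0.1, so the numbers were not taken as pairs. This limit of 0.1 was not calibrated, and whether libraries with the same number share a litter is not known. With the replicate block alone 11 genes were called, 0 of them among the 10, and Dcx was at 0.029. Nde1 had the lowest estimated counts of the 10 genes, 303 to 424 in a library. The SE of its log2 fold change (0.127) was nevertheless smaller than that of Dcx (0.226), the most abundant gene.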
